A study of Mus musculus with 25 samples.

Results

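Colon RNA of mice labelled Card9-/- was compared with colon RNA of wild-type (WT) mice at the end of 7 days of dextran sulfate sodium (DSS), the time of acute injury. The comparison used every array whose label gives colon at day 7, 4 arrays labelled Card9-/- and 5 WT arrays, or 9 of the 25 arrays of the series. Each array held colon RNA of 1 female mouse, 8 weeks old and of the C57BL/6J strain. Both groups drank 2% (w/v) DSS, and the Card9-/- mice were on the same C57BL/6J background. The labels do not say which part of the Card9 gene was deleted or which segment of the colon was taken. The other arrays, labelled Card9-/- and WT at day 0 (3 arrays each) and at day 12 after 5 days of plain water (5 arrays each), share the estimate of the spread and are set beside the day 7 values. The design names 5 mice for the day 7 Card9-/- group, and the remaining mouse is not analysed here.

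CARD9 is an adaptor of myeloid cells that carries the signal of C-type lectin receptors such as dectin-1 (Clec7a) and mincle (Clec4e), which read fungal and microbial sugars. The kinase SYK acts between these receptors and CARD9, which joins BCL10 and MALT1 to activate NF-κB. DSS is a sulfated polymer that injures the colonic epithelium, so that bacteria reach the mucosa and neutrophils and monocytes enter it. Loss of Card9 is known to worsen or prolong DSS colitis in mice and to lower IL-22 in the colon. By its title the series concerns CARD9, tryptophan products of gut bacteria and the aryl hydrocarbon receptor (AhR), and the day 7 comparison asks how the 2 genotypes differ at the height of injury.

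The Card9 probe did not behave as a loss of transcript. It lies on chromosome 2 at positions 26208462 to 26208521 of the mm9 build, minus strand, and its sequence is shown because every direction below rests on the genotype labels that it bears on.
Card9: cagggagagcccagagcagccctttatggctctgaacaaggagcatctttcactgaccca
Levels are given throughout as log2 signal relative to the 75th percentile of the same array. Card9 stood at -0.53, -0.70, -0.62 and -0.48 in the arrays labelled Card9-/-, against -6.19, -6.03, -4.32, -5.41 and -5.22 in the WT arrays. The probe was well above background on 4 of 4 arrays labelled Card9-/- and on 1 of 5 WT arrays, replicate 3. The difference was 4.85 ± 0.55 (standard error, SE), with an adjusted p of 0.000452 in limma. Since 4 of 5 WT arrays were not well above background, its size is not well measured. At day 0 the probe was well above background on 3 of 3 arrays labelled Card9-/- and 0 of 3 WT arrays, and at day 12 on 5 of 5 and 1 of 5. With normexp background correction, which raises dim signals, it was 2.28. A probe outside the deleted part of a gene checks nothing about the deletion, and the labels do not place this probe relative to it. Whether the genotype labels are exchanged, which would reverse every direction below, was not tested. The groups are therefore named by their labels, and each rise or fall below means higher or lower in the arrays labelled Card9-/-.

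A few library properties bear on these 9 arrays. The 75th percentile of the raw intensity lay between 204.6 and 656.3 in the arrays labelled Card9-/- and between 214.7 and 658.4 in the WT arrays, and the number of arrays limits the precision. Within the group labelled Card9-/- it was 289.3 and 204.6 in replicates 2 and 3, against 485.2 and 656.3 in replicates 1 and 4. The WT value of 214.7 was that of replicate 5. Replicates 2 and 3 labelled Card9-/- carried pancreatic transcripts. Cpb1, a pancreatic carboxypeptidase, stood at 10.17 and 10.54 in these arrays, at -6.48 and -4.28 in replicates 1 and 4 labelled Card9-/-, and between -6.46 and -4.61 in the WT arrays. All 21 tested members of the pancreatic acinar list had a higher mean in the group labelled Card9-/- and 0 passed limma's test (14 at an unadjusted p under 0.05). The mean of that list, relative to its WT day 0 mean, was 11.68 and 12.10 in replicates 2 and 3 labelled Card9-/-, and between -0.85 and 1.42 in the other 7 arrays. The 2 arrays also led a short islet list, at 2.93 and 4.80, against at most 0.70 in the other 7. Each of the 4 slides held arrays of both genotypes.

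At day 7, 140 of 25464 genes differed between genotypes at an adjusted p under 0.05 (0.55% of those tested). Of these, 37 were higher in the arrays labelled Card9-/- (0.145%) and 103 were lower (0.404%), with median folds of 1.99 and 1.51, and 18 rises and 15 falls exceeded 2-fold. At an unadjusted p under 0.05 there were 4206 genes, 5.97% of those tested being higher and 10.5% lower at that level, and the median difference of all genes was -0.06 on the log2 scale. The values of the groups did not overlap for 31 of the 37 rises and 80 of the 103 falls, where 0.911% and 1.62% of all genes tested stood apart in those directions. Within each of the 4 slides, all 140 genes differed in the same direction as across slides, which groups that do not overlap largely fix.

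The number of calls depended on single arrays, as the plot of calls with 1 array left out shows. Without WT replicate 3 it was 2273 (8.93%), and those included all 140. Without replicate 1 labelled Card9-/- it was 655. Leaving out WT replicate 1, 2, 4 or 5 gave 15, 4, 6 or 49 calls, and leaving out replicate 2, 3 or 4 labelled Card9-/- gave 12, 4 or 41. Without the 4 arrays of the series that held pancreatic transcripts, among them replicates 2 and 3 labelled Card9-/-, 1 gene was called, Card9 itself. For each of the 140 genes, the difference with these arrays left out was divided by that on all arrays. The median of these ratios was 0.896, with a range from 0.461 to 1.35. All 140 kept their sign, which the choice of the genes on the remaining arrays largely fixes. WT replicate 3 was the WT array nearest to the mean of the group labelled Card9-/- for 103 of the 140 genes (73.6%).

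**Figure D1:**
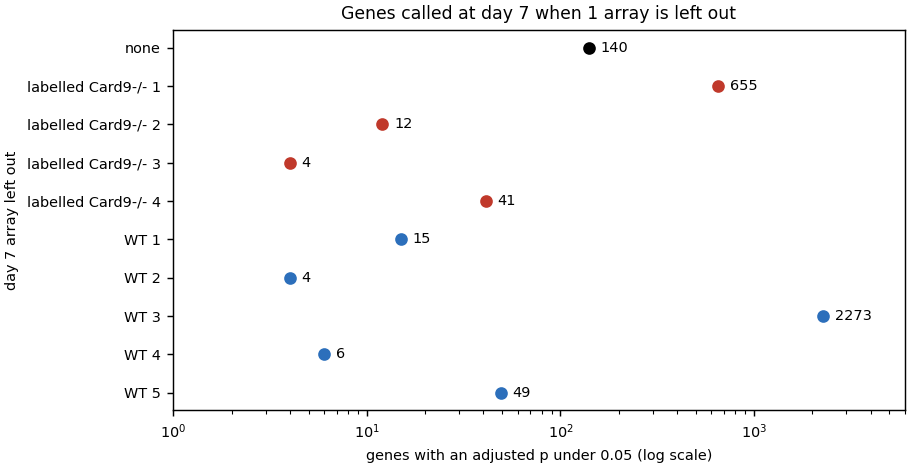
Number of genes with an adjusted p under 0.05 at day 7 (horizontal axis, log scale) when no array or 1 day 7 array is left out (vertical axis); red points leave out an array labelled Card9-/-, blue points a WT array. The count lies at 140 with all arrays, at 2273 without WT replicate 3 and at 4 without replicate 3 labelled Card9-/- or WT replicate 2.

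The probes of 5 of the leading genes, each with its place in the mm9 build, are given first, since they measured the falls of smallest p among genes with a proper symbol, and a rise from each of the red blood cell, T cell and hypoxia genes described next. No base is set in capitals because no part of a probe is singled out.
Creb3l4 (chr3:90041531-90041590, minus strand): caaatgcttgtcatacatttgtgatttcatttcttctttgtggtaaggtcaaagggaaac
Fam114a1 (chr5:65432023-65432082, plus strand): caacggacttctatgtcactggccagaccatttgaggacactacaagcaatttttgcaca
Slc4a1 (chr11:102210256-102210315, minus strand): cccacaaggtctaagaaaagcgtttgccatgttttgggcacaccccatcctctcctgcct
Tnfrsf4 (chr4:155390639-155390698, plus strand): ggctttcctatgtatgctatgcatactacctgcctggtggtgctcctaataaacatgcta
Egln3 (chr12:55280953-55281012, minus strand): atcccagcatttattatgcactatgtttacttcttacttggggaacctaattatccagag

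Several of the largest rises were in genes known from blood and immune cells. Slc4a1, the band 3 anion exchanger of the red cell membrane, stood at -3.87, -0.98, -0.75 and -2.11 in the arrays labelled Card9-/-, against -4.92, -4.22, -4.97, -5.08 and -4.41 in WT arrays. As 0 of 5 WT arrays were well above background, the rise is given as at least 5.08-fold (adjusted p = 0.0397), and replicate 1 labelled Card9-/- lay closest to the WT arrays. Il5ra, the interleukin-5 receptor chain found on eosinophils and some B cells, stood at -0.03, 0.17, 1.24 and 0.31 in the arrays labelled Card9-/-, against -3.36, -2.54, -0.46, -1.50 and -1.33 in WT arrays. It rose by 2.26 ± 0.47 (adjusted p = 0.0397), and the groups did not overlap, WT replicate 3 being the nearest WT array. Stfa2l1, a stefin-type protease inhibitor of mouse neutrophils, stood at -1.03, -0.70, -0.58 and 0.10 in the arrays labelled Card9-/-, against -2.84, -3.62, -1.17, -2.54 and -2.59 in WT arrays. It rose by 2.00 ± 0.40 (adjusted p = 0.0342), with WT replicate 3 again next to the arrays labelled Card9-/-, and its near-identical gene copies on chromosome 16 may share its probe.

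Tnfrsf4 encodes OX40, a costimulatory receptor of activated T cells. Its levels were -0.02, 0.11, -0.47 and 0.37 in the arrays labelled Card9-/-, against -1.75, -1.28, -0.65, -1.05 and -1.17 in WT arrays. The rise of 1.18 ± 0.19 had an adjusted p of 0.0161 and ranged from 0.69 to 1.73 within slides. Txk, a TEC-family kinase of T cells, rose by 1.01 ± 0.21 (adjusted p = 0.0409), with -2.36, -1.97, -2.26 and -1.58 in the arrays labelled Card9-/-, against -3.27, -3.22, -2.51, -2.74 and -3.49 in WT arrays. In both genes the groups stood apart, by little, because WT replicate 3 was the highest WT array. Asprv1, a retroviral-like aspartic protease known from skin, rose by 1.27 ± 0.28 (adjusted p = 0.0416).

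Egln3 and Bnip3, which are both induced under low oxygen, rose together. Egln3, a prolyl hydroxylase that marks HIF-1α for breakdown, stood at 2.65, 2.26, 2.87 and 3.09 in the arrays labelled Card9-/-, against 1.93, 1.36, 1.66, 2.00 and 1.66 in WT arrays. Its difference was 0.99 ± 0.19 (adjusted p = 0.0291). Bnip3, a mitochondrial outer membrane protein of mitophagy, stood at 3.62, 3.85, 4.31 and 4.30 in the arrays labelled Card9-/-, against 3.32, 3.29, 2.96, 3.26 and 2.70 in WT arrays, a difference of 0.92 ± 0.18 (adjusted p = 0.0342). For these genes WT replicate 3 lay among the other WT arrays and not next to the arrays labelled Card9-/-.

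The other rises named here ranged from 0.77 to 2.69 on the log2 scale. Prg4, which encodes lubricin, rose by 2.69 ± 0.59 (adjusted p = 0.0422), with -2.74, -0.12, -1.03 and -2.52 in the arrays labelled Card9-/-, against -5.93, -4.63, -2.96, -4.13 and -3.80 in WT arrays. Nfasc, the adhesion molecule neurofascin, rose by 1.62 ± 0.29 (adjusted p = 0.0254), with -1.18, 0.51, -0.06 and -1.21 in the arrays labelled Card9-/-, against -2.39, -2.56, -1.23, -1.87 and -2.50 in WT arrays. Replicates 2 and 3 labelled Card9-/-, the arrays with pancreatic transcripts, were the highest 2 of the 9 for Prg4, Nfasc and Slc4a1. Without the arrays with pancreatic transcripts the differences were 1.66 for Prg4 and 0.91 for Nfasc, with adjusted p-values of 0.437 and 0.352, and Slc4a1 had an adjusted p of 0.336. The same 2 arrays were the highest for Foxred2, an oxidoreductase of the endoplasmic reticulum (1.59 ± 0.32), and for Eif2s2, the beta subunit of translation initiation factor eIF2 (0.77 ± 0.16). The part of the pancreatic transcripts in these rises was not tested. Krba1 (0.84) and the calpain gene Capn3 (0.81) complete the list.

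Single genes of secretory cells (Creb3l4), carotenoid cleavage (Bco2) and epithelial polarity (Prkcz) stood among the falls. Creb3l4, a membrane-bound transcription factor of secretory cells, had levels of 2.73, 2.53, 2.33 and 2.46 in the arrays labelled Card9-/-, against 3.83, 3.55, 2.83, 3.61 and 3.56 in WT arrays. It fell by 0.96 on the log2 scale (SE 0.14, adjusted p = 0.00832), and WT replicate 3 was the WT array nearest to the arrays labelled Card9-/-. Fam114a1, named for having the smallest p after Card9 and so chosen after its values were seen, had 1.96, 2.11, 2.03 and 2.05 in the arrays labelled Card9-/-, against 2.68, 2.85, 2.44, 2.71 and 2.74 in WT arrays. It fell by 0.64 (SE 0.08, adjusted p = 0.00105), and its within-slide differences lay between -0.72 and -0.53.

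Pla2g3, a secreted phospholipase A2, showed the largest named fall. It stood at -0.75, -1.11, -1.66 and -2.39 in the arrays labelled Card9-/-, against 0.58, 0.26, -0.53, 0.17 and 0.12 in WT arrays, a difference of -1.60 ± 0.34 (adjusted p = 0.0411). Klhl24, a substrate adaptor of a cullin ubiquitin ligase, fell by 1.23 (SE 0.22, adjusted p = 0.0254), with -2.65, -2.79, -2.47 and -3.08 in the arrays labelled Card9-/-, against -1.12, -1.62, -1.97, -1.38 and -1.50 in WT arrays. In both genes the lowest WT array was replicate 3.

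Bco2, a carotenoid-cleaving oxygenase of mitochondria, stood at 0.54, 0.49, 0.57 and 0.13 in the arrays labelled Card9-/-, against 1.48, 2.00, 0.75, 1.45 and 1.45 in WT arrays. It fell by 0.99 (SE 0.18, adjusted p = 0.0254). Prkcz, the atypical protein kinase C of epithelial polarity, stood at 1.28, 1.63, 1.65 and 1.39 in the arrays labelled Card9-/-, against 2.34, 2.67, 1.78, 2.24 and 2.08 in WT arrays, a fall of 0.73 that barely separated the groups (difference -0.73 ± 0.16, adjusted p = 0.0416). WT replicate 3 was again the lowest WT array in both. Ccn3, a matricellular protein, had 1.32, 1.07, 0.99 and 1.26 in the arrays labelled Card9-/-, against 1.66, 2.46, 1.77, 2.11 and 1.82 in WT arrays, a difference of -0.80 ± 0.15 (adjusted p = 0.0254) with WT replicate 3 among the others.

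The remaining named falls lay between -1.12 (Pyroxd2) and -0.77 (Mkks, a chaperonin-like protein linked to Bardet-Biedl syndrome). They were Cgref1 (-0.97), the transporter gene Slc12a8 (-0.90), Ints8, a subunit of the Integrator complex (-0.88), the histone deacetylase gene Hdac11 (-0.87), Exd1 (-0.83), Triqk (-0.83) and Strbp, an RNA-binding protein (-0.79). Ffar2, the receptor for short-chain fatty acids made by gut bacteria, was also called, though its groups overlapped and it was picked after its values were seen. It stood at 1.60, 1.23, 0.70 and 0.84 in the arrays labelled Card9-/-, against 2.98, 2.12, 1.50, 2.44 and 2.38 in WT arrays, a difference of -1.19 ± 0.22 (adjusted p = 0.0254). The overlap came from replicate 1 labelled Card9-/- and WT replicate 3.

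**Figure D2:**
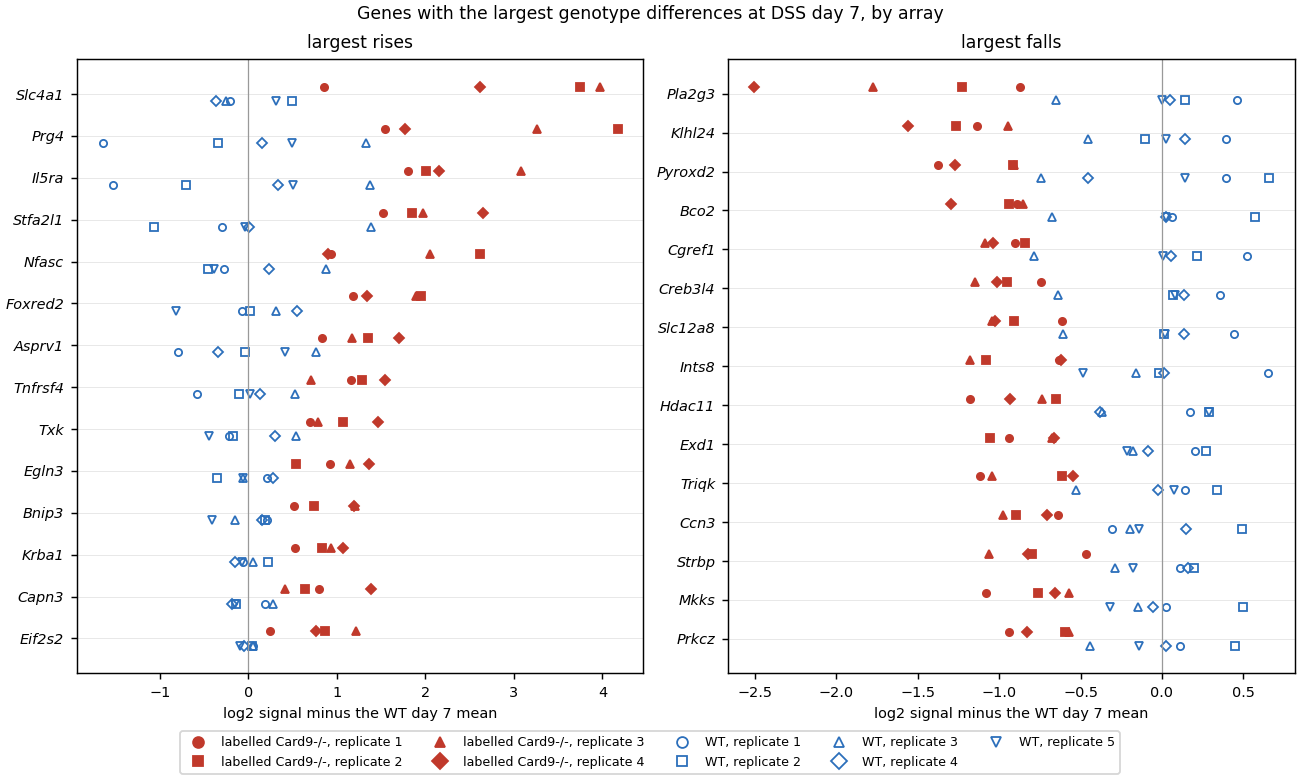
Each point is 1 array: log2 signal minus the WT day 7 mean of the gene (horizontal axis) for the largest rises (left) and falls (right), filled red for arrays labelled Card9-/- and open blue for WT, with the replicate given by the marker. The groups do not overlap, as the choice of genes requires, and WT replicate 3 (open triangle) is often the WT point nearest to red.

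Other probes of the named genes gave a partial check. Of the 32 genes named by rank, as Card9 or as its neighbour, 10 had another measured probe, 13 such probes in all. All 13 differed in the same direction and 6 were called. For Prkcz the other probes gave -0.39 and -0.51, and for Bnip3 0.93 and 0.44. Each gene was measured in 19 or 20 alternative settings, which change the processing or the model or leave out arrays, and which reuse the same values. Card9 stayed called in 19 of 19, Creb3l4 in 17 of 20, Tnfrsf4 in 16 of 20 and Strbp in 15 of 20. At the other end, Capn3 stayed called in 4 of 20.

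Neutrophil genes had a higher mean in the arrays labelled Card9-/-, and WT replicate 3 was the WT array nearest to them. Of 24 tested neutrophil genes, 1 rose by the test (Stfa2l1), 0 fell, 20 were higher at an unadjusted p under 0.05 and 6 stood apart. Over all genes tested, 5.97% were higher at that level and 0.911% stood apart in that direction. The median difference was 1.88, against -0.06 for all genes tested. S100a8, a subunit of the neutrophil protein calprotectin, stood at 4.04, 4.80, 4.36 and 4.96 in the arrays labelled Card9-/-, against -1.61, 0.32, 4.15, 2.24 and 1.70 in WT arrays. Its difference of 3.18 ± 0.76 missed the threshold (adjusted p = 0.0588), and WT replicate 3 lay within the range of the arrays labelled Card9-/-. Padi4, the peptidylarginine deiminase of neutrophil chromatin, had -2.79, -1.87, -2.43 and -2.31 in the arrays labelled Card9-/-, against -4.15, -4.61, -2.92, -3.65 and -3.87 in WT arrays (1.49 ± 0.35, adjusted p = 0.0556). The mean of the list was 4.13 to 4.78 in the arrays labelled Card9-/-, against 4.21 in WT replicate 3 and 1.44 to 3.11 in the other WT arrays. In bulk tissue, more cells of a type and more RNA per cell cannot be told apart.

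Other inflammatory lists had 0 or 1 call each. In the list of inflammatory cytokines and chemokines, 0 of 24 genes passed limma's test and 7 were higher at an unadjusted p under 0.05, with a median difference of 1.05. For this and the next lists, the shares over all genes tested were 5.97% higher at that level and 0.145% called higher. Il1b, the cytokine interleukin-1β, stood at 2.87, 3.73, 3.69 and 3.52 in the arrays labelled Card9-/-, against -1.87, 1.30, 3.82, 2.32 and 1.10 in WT arrays (2.12 ± 0.74, adjusted p = 0.159). WT replicate 3 had the highest Il1b of the 9 arrays. Of 19 macrophage and monocyte genes, 0 passed limma's test and 13 were higher at an unadjusted p under 0.05. Of 18 matrix proteases and inhibitors, 1 rose, Adam8, a metalloprotease of leukocytes, with 0.97, 1.42, 1.20 and 1.92 in the arrays labelled Card9-/-, against -1.43, -1.17, 1.30, 0.01 and -1.13 in WT arrays (1.86 ± 0.42, adjusted p = 0.0482). Of 35 interferon-response genes, 0 passed limma's test and 7 were higher at an unadjusted p under 0.05, with a median of 0.40. The interferon list means were 1.05 to 1.96 in the arrays labelled Card9-/-, and WT replicates 2, 3 and 4 lay within that range. WT replicate 3 was the highest WT array for 22 of 24 cytokine genes, 16 of 19 macrophage genes, 16 of 18 protease genes and 30 of 35 interferon genes, where it was the highest WT array for 14.3% of the 25389 genes measured on all 5 WT arrays.

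In the hypoxia and glycolysis list WT replicate 3 was the highest WT array for 5 genes and the lowest for 7. Of 17 tested genes 2 rose (Egln3 and Bnip3), 0 fell, 8 were higher at an unadjusted p under 0.05 and 3 stood apart, with a median difference of 0.31. The shares over all genes tested were 5.97% higher at that level and 0.911% apart in that direction. Slc16a3, the lactate exporter MCT4, had 2.91, 2.13, 2.52 and 3.13 in the arrays labelled Card9-/-, against 1.16, 1.19, 2.06, 2.18 and 0.78 in WT arrays (1.20 ± 0.28, adjusted p = 0.0545). Slc2a1, the glucose transporter GLUT1, had 4.30, 4.31, 4.89 and 4.77 in the arrays labelled Card9-/-, against 3.96, 4.15, 4.16, 4.20 and 3.62 in WT arrays (0.55 ± 0.17, adjusted p = 0.11). The list mean was 0.57, 0.53, 0.78 and 0.78 in the arrays labelled Card9-/-, against 0.13, 0.31, 0.33, 0.43 and 0.06 in WT arrays, and these did not overlap. The glycolytic genes Eno1 (0.15), Ldha (0.13) and Aldoa (-0.02) differed little and were not called.

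Red blood cell transcripts separated the groups in every tested gene of their list. All 5 tested genes stood apart, where 0.911% of all genes tested did so in that direction. Of the 5, 1 was called (Slc4a1), and the median difference was 3.11. Hba-a1, an alpha globin, stood at 4.31, 5.17, 7.56 and 5.79 in the arrays labelled Card9-/-, against 2.62, 3.20, 3.69, 2.47 and 1.52 in WT arrays (3.01 ± 0.72, adjusted p = 0.0588). Alas2, the erythroid enzyme that starts haem synthesis, stood at -0.95, -0.54, 1.99 and 0.59 in the arrays labelled Card9-/-, against -4.07, -2.65, -2.47, -3.65 and -4.35 in WT arrays (3.71 ± 0.97, adjusted p = 0.0708). Replicate 3 labelled Card9-/-, which also had the most pancreatic transcript, was the highest array for Hba-a1 and Alas2. The globin copies Hbb-b1 (3.37) and Hbb-b2 (3.11) are near-identical and their probes cannot be told apart with certainty. With the arrays that hold pancreatic transcripts left out, the median of the list was 2.56 and 0 of 5 were called. Blood left in the tissue, as a part of this difference, was not tested.

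B cell genes were also higher on average in the arrays labelled Card9-/-, without a call. Of 12 tested genes, 0 passed limma's test, 7 were higher at an unadjusted p under 0.05 and 5 stood apart, with a median of 1.88. Among all genes tested, 5.97% were higher at that level and 0.911% stood apart in that direction. Cd79a, part of the B cell receptor, had -0.21, 0.04, 1.09 and -0.54 in the arrays labelled Card9-/-, against -3.06, -1.32, -1.19, -1.74 and -0.92 in WT arrays (1.74 ± 0.70, adjusted p = 0.213). The groups stood apart, and WT replicate 1 was far below the others, at -3.06. That array also had the highest mean of the proximal colon position list, 2.31, where the arrays labelled Card9-/- had at most 0.26 and the other WT arrays at most 0.51. It had the highest mean of the distal colon position list as well, 2.646. There the arrays labelled Card9-/- had at most 0.955 and the other WT arrays at most 1.355, so the 2 lists give no single position. The part of colon position in the B cell difference was not tested. In the T cell list, 0 of 12 passed limma's test, 5 were higher at an unadjusted p under 0.05 and 2 stood apart, Zap70 (0.77 ± 0.20, adjusted p = 0.0672) and Cd28 (1.10 ± 0.29, adjusted p = 0.0713).

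Goblet cell genes had a lower mean in the arrays labelled Card9-/- for 11 of 16 tested, as had 14860 of all 25464 genes tested. By the test 1 fell (Creb3l4), 0 rose, and 7 were lower and 1 higher at an unadjusted p under 0.05, with a median of -0.36. Over all genes tested, 10.5% were lower and 5.97% higher at that level. Agr2, a disulfide isomerase needed for mucin folding, stood at 7.99, 8.09, 8.10 and 7.66 in the arrays labelled Card9-/-, against 8.67, 8.79, 8.03, 8.50 and 8.79 in WT arrays (-0.60 ± 0.14, adjusted p = 0.0588). Atoh1, the transcription factor of the secretory lineage, had 2.58, 2.59, 2.95 and 2.57 in the arrays labelled Card9-/-, against 3.55, 3.71, 2.89, 3.07 and 3.45 in WT arrays (-0.66 ± 0.18, adjusted p = 0.0772). WT replicate 3 lay within the range of the arrays labelled Card9-/- in both. Muc2, the main mucin, differed by -0.30 ± 0.18, while Zg16, a lectin of the mucus, differed by 0.62 ± 0.26, and neither was called (adjusted p of 0.427 and 0.24).

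Other epithelial lists gave 1 or 0 calls. Of 13 tight junction genes 1 fell, Marveld2 (tricellulin), with 1.31, 1.16, 1.08 and 1.06 in the arrays labelled Card9-/-, against 1.62, 1.81, 1.41, 1.67 and 1.49 in WT arrays (-0.44 ± 0.10, adjusted p = 0.044). Of 34 xenobiotic metabolism genes 1 fell, the phenol sulfotransferase gene Sult1a1, with 3.96, 4.28, 4.55 and 4.33 in the arrays labelled Card9-/-, against 5.70, 5.76, 4.38, 5.61 and 5.32 in WT arrays (-1.08 ± 0.24, adjusted p = 0.0486). The groups did not overlap for Marveld2 and did for Sult1a1. At an unadjusted p under 0.05, 4 tight junction genes were lower and 0 higher, and 8 xenobiotic metabolism genes were lower and 1 higher. Among all genes tested, 10.5% were lower and 5.97% higher at that level, and 0.404% were called lower. Of the tight junction genes 2 stood apart as lower, where 1.62% of all genes tested did so. Of 26 genes of oxidative phosphorylation, 0 passed limma's test and 24 had a lower mean, as had 14860 of all 25464 genes tested. The median was -0.15, and 8 genes were lower at an unadjusted p under 0.05. WT replicate 3 was the lowest WT array for all 26, where it was the lowest for 34.9% of the genes measured on all 5. Epcam (-0.03 ± 0.12) and Vil1 (0.17 ± 0.10), which mark the epithelium itself, were not called.

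Mitosis genes were low in replicate 3 labelled Card9-/-. All 19 tested genes had a lower mean in the arrays labelled Card9-/- (median -0.41), 0 passed limma's test and 2 were lower at an unadjusted p under 0.05, near the 10.5% of all genes tested. The list mean was 0.38, -0.19, -2.40 and -0.93 in the arrays labelled Card9-/-, against -0.60, -0.55, 0.10, -0.21 and -0.33 in WT arrays, so replicates 3 and 4 labelled Card9-/- were the lowest of the 9 and replicate 1 the highest. Without the arrays that hold pancreatic transcripts the median was 0.07. In the DNA replication list, 14 of 18 genes had a higher mean (median 0.13), 0 passed limma's test and 0 reached an unadjusted p under 0.05.

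**Figure D3:**
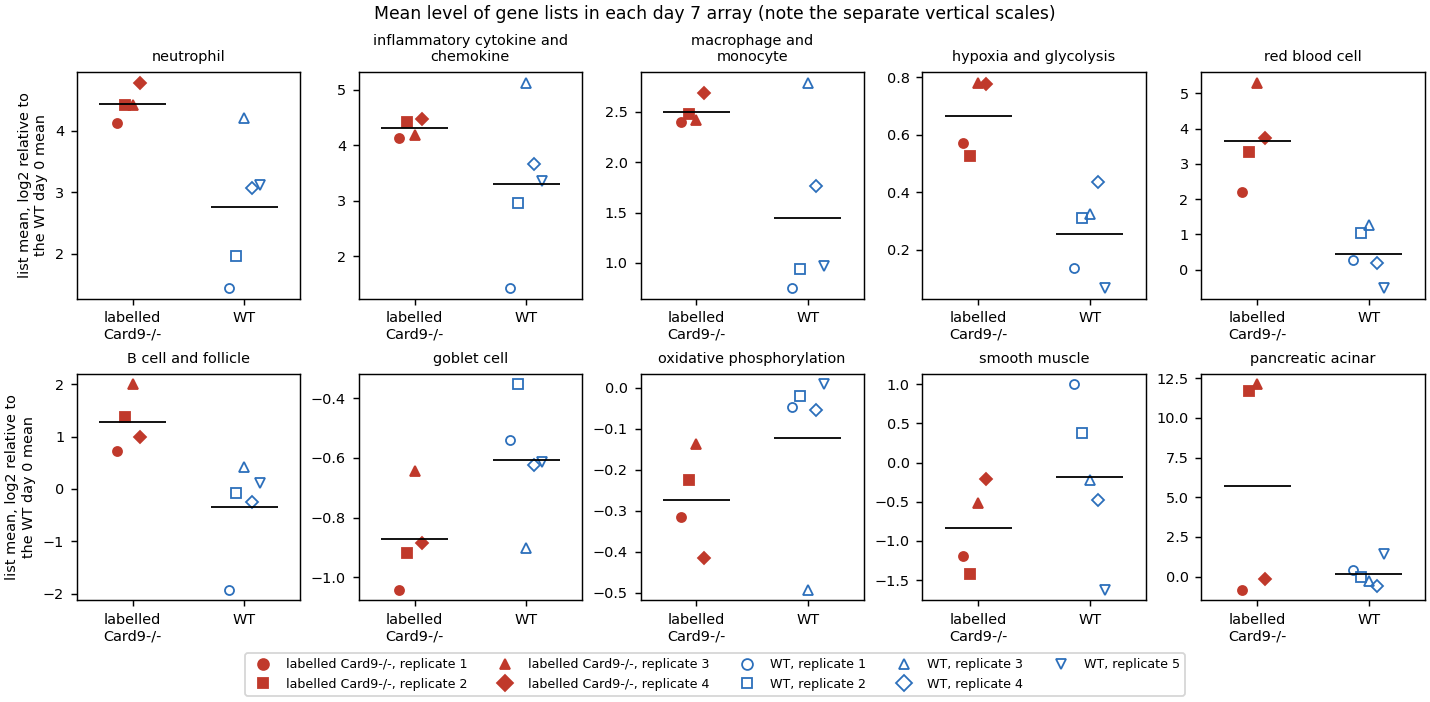
Mean log2 level of 10 gene lists in each day 7 array, relative to the WT day 0 mean (vertical axes differ), with arrays labelled Card9-/- in filled red, WT arrays in open blue and a line at the group mean. The hypoxia, red blood cell and B cell means do not overlap between groups, the neutrophil, cytokine, macrophage, goblet and oxidative phosphorylation means overlap through WT replicate 3 (open triangle), and the acinar mean is high in replicates 2 and 3 labelled Card9-/-.

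Apart from Card9 itself, 0 of the other 21 tested genes of the CARD9 pathway and its lectin receptors passed limma's test. At an unadjusted p under 0.05, 7 were higher and 2 lower, where 5.97% of all genes tested were higher and 10.5% lower. Clec7a (dectin-1) stood at 1.58, 1.82, 1.44 and 2.00 in the arrays labelled Card9-/-, against -0.68, -0.19, 1.94, 0.77 and -0.77 in WT arrays (1.50 ± 0.44, adjusted p = 0.0986). Clec4e (mincle) had a difference of 2.47 ± 0.93 (adjusted p = 0.182) and was the highest in WT replicate 3, at 1.55. The partners below the receptors were not called. Syk differed by 0.35 ± 0.20, Bcl10 by -0.15 ± 0.10 and Malt1 by 0.14 ± 0.11, with adjusted p-values of 0.419, 0.469 and 0.541. Their 95% intervals ran from -0.08 to 0.77, from -0.35 to 0.05 and from -0.08 to 0.37. Card10, a related scaffold of epithelial cells, had 1.28, 1.09, 0.78 and 0.93 in the arrays labelled Card9-/-, against 1.14, 1.69, 1.29, 1.50 and 1.63 in WT arrays (-0.43 ± 0.11, adjusted p = 0.0708).

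The lists of IL-22 and IL-17, AhR and tryptophan metabolism genes held no call at day 7. Of 15 tested genes that make up the IL-22/IL-17 list, 0 passed limma's test and 0 reached an unadjusted p under 0.05. Il22 stood at -3.94, -2.03, -2.63 and -3.40 in the arrays labelled Card9-/-, against -5.65, -2.34, -0.95, -3.79 and -2.38 in WT arrays, a difference of 0.02 ± 0.81 with a 95% interval from -1.67 to 1.71. Ccr6, the receptor of Th17 cells and B cells, was the single member whose groups stood apart (1.70 ± 0.82, adjusted p = 0.304), where 0.911% of all genes tested did so in that direction. Of 12 AhR and target genes, 0 passed limma's test and 2 were lower at an unadjusted p under 0.05, among them Nqo1 (-0.89 ± 0.34, adjusted p = 0.183), a quinone reductase. At that level 10.5% of all genes tested were lower and 5.97% higher. Ahr itself differed by 0.07 ± 0.16, and Cyp1a1, its classical target, was well above background on 1 of 4 arrays labelled Card9-/- and on 0 of 5 WT arrays. Of 17 tryptophan metabolism genes, 0 passed limma's test and 3 were higher at an unadjusted p under 0.05, and Ido1, which starts tryptophan breakdown, differed by -0.40 ± 0.73 (adjusted p = 0.848).

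Chromosome 2, which carries Card9, held 18 of the 140 called genes. That was 0.961% of the 1874 genes tested there, against 0.55% of all genes tested. Other chromosomes had similar shares, such as chromosome 3 with 0.952% of 1261 genes and chromosome 13 with 0.855% of 1053. Within 5 Mb of the Card9 probe 218 genes were tested, and 2 were called, Card9 and Trub2, a mitochondrial pseudouridine synthase. Trub2 rose by 0.69 ± 0.15 on the log2 scale, and its difference was 0.34 at day 0 and 0.40 at day 12, where it was not called.

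Setting the same genes beside the other days, 31 of 31 named genes other than Card9 had a smaller difference at day 0 and at day 12 than at day 7, the day they were chosen on. None of the 31 was called in limma at day 0 or at day 12, where 1 gene and 18 genes were called in all (1266 and 2253 at an unadjusted p under 0.05). Of all called genes, 15 of 37 rises and 45 of 103 falls had the same sign at day 0, and 24 and 82 at day 12. A difference between days was itself called for 1 of 25463 genes between day 7 and day 0 (0.00393%) and 2 of 25464 between day 7 and day 12 (0.00785%), with 2947 and 1964 at an unadjusted p under 0.05. None of the 31 was among them, with adjusted p-values from 0.168 to 0.612 against day 0 and from 0.308 to 0.804 against day 12. At day 0, 2 of the 3 arrays labelled Card9-/- had a high mean of the proximal colon position list (2.31 and 1.99), whose part in the day 0 differences was not tested.

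**Figure D4:**
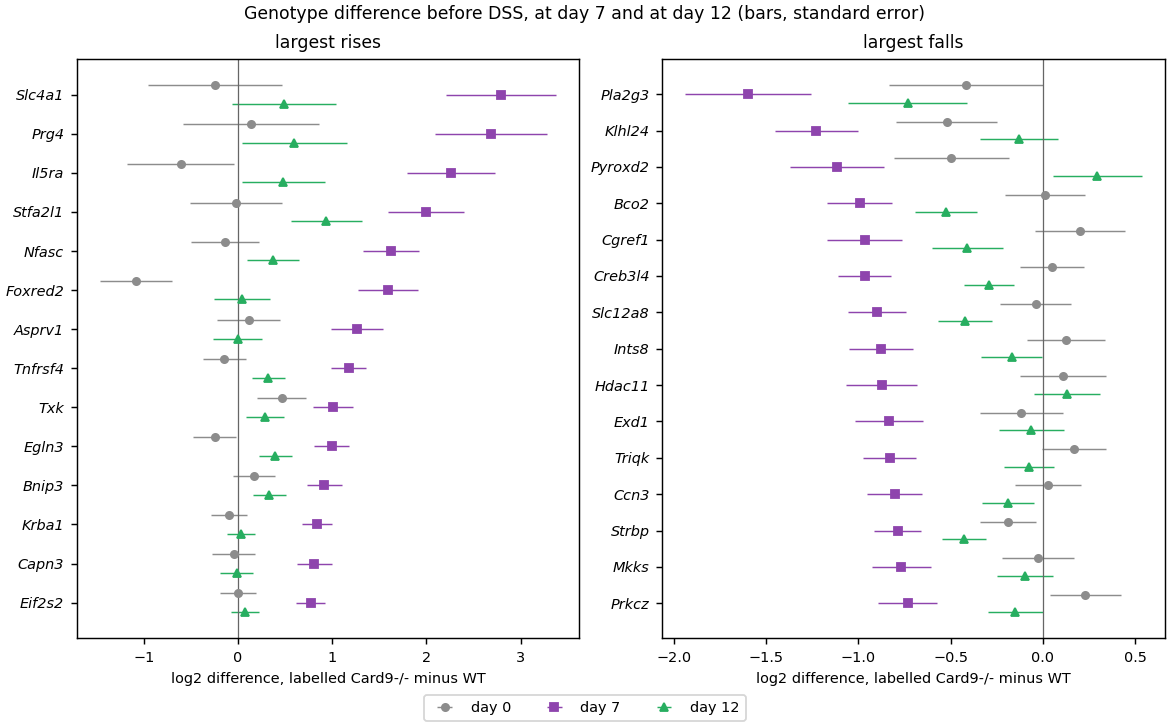
Log2 difference between arrays labelled Card9-/- and WT arrays (horizontal axis, with the SE of the fit) at day 0 (grey circles), day 7 (purple squares) and day 12 (green triangles) for the largest rises (left) and falls (right). The genes were chosen for day 7, and all day 0 and day 12 values are smaller in size than the day 7 value, for example 0.40 for Egln3 at day 12.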

How the data were processed

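Each array held Cy3-labelled colon RNA of 1 mouse. The authors deposited spot intensity values made with Agilent Feature Extraction 10.7.3.1, per the submitters' processing notes, background-subtracted and not normalized between arrays, per the file headers. The authors also deposited a value table on a log2 scale, by its values, with normalization not given in the sources used here, which served as an alternative. The analysis took log2 of the processed intensity minus the array's 75th percentile over non-control spots, and kept probes well above background on at least 3 of 25 arrays (36283 of 55681). A gene was represented by its brightest probe, and 7325 genes had several. RefSeq (GRCm38.p6) named 27656 probes by accession and 3722 by symbol, the rest kept the files' names, and coordinates from the files (mm9). The 6 groups were fitted together with limma 3.58.1 in R 4.3.3, with Benjamini-Hochberg adjustment over all genes, and version 1.17.8 of data.table handled the files. Simulated arrays were used to test the fit. Figures were drawn with matplotlib 3.10.9.

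A bound ("at least N-fold") sets the bright group's mean against the dim group's mean of, per array, whichever is higher of that probe's signal and the weakest signal still well above background. The text names Card9, 15 rises and 15 falls with the largest differences among called genes with a proper symbol, no overlap, and all arrays of 1 group or both well above background, called genes within 5 Mb of Card9, up to 4 genes per described list by smallest p, the brightest acinar genes, and any gene of the CARD9, IL-22 and IL-17, AhR and tryptophan lists. Others are said to be chosen after their values were seen, as are Il1b, Slc2a1, Alas2, Muc2, Zg16, Epcam, Vil1, Eno1, Ldha and Aldoa. One gene among the 15 rises is counted but not reported here by name. The comparison, the members and the lists were chosen with earlier results of these data known. The same-number arrays of the 2 groups deviated from their group means with correlations between -0.215 and 0.088, so the numbers were not taken as pairs.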

Additional observations from a re-analysis of the deposited data

Results flagged for a closer look

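Among 154 groups of day 7 values for the genes named by rank or given in the text, 6 held an array far from the rest of its group, where chance gives about 1 group in 20. Creb3l4 was at 2.83 in WT replicate 3, with the next WT array at 3.55, a gap of 0.713 of the whole WT range. Atoh1 was at 2.95 in replicate 3 labelled Card9-/-, with the next array of that group at 2.59. WT replicate 1 was low for Syk (2.40, next 3.38) and for Ccr6 (-4.45, next -1.71). Ahr was at 0.36 in WT replicate 5 (next 0.99), and Slc16a6 at 1.16 in WT replicate 3 (next 0.92). Their cause was not tested.

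Slc16a6, a solute carrier of the monocarboxylate transporter family, had a genotype difference at day 7 that exceeded the one at day 0 by 1.17 ± 0.18 (limma, adjusted p = 0.0389). It was 0.51 at day 7 and -0.66 at day 0, and the levels were 1.71, 1.51, 1.44 and 1.13 in the arrays labelled Card9-/- at day 7, against 0.90, 0.84, 1.16, 0.92 and 0.88 in WT arrays. No gene passed in this test of the 2 days under normexp, with no filter, with every probe on its own, with the replicate block, in a fit of the contrast's groups alone, with the proximal colon covariate or without the arrays with pancreatic transcripts. At day 0, 2 of the 3 arrays labelled Card9-/- had a high proximal colon mean (2.31 and 1.99). Ifit1, an interferon-induced gene, had a genotype difference at day 7 that exceeded the one at day 12 by 2.26 ± 0.34 (adjusted p = 0.0202), with 0.44 at day 7 and -1.81 at day 12. Oasl1, also interferon-induced, exceeded its day 12 difference by 1.29 ± 0.19 (adjusted p = 0.0202), with 0.42 at day 7 and -0.87 at day 12. The test between day 7 and day 12 gave 0 genes under normexp, the replicate block, a fit of the contrast's groups alone and without the arrays with pancreatic transcripts. Neither Ifit1 nor Oasl1 was called at day 7 itself. No cause of these differences was tested.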

How the results depend on the processing

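With 4 and 5 arrays, each array left out moved the count by over 1.5 times, so which genes pass the threshold is uncertain. Every one of the 140 genes measured in a setting kept its sign there across the 20 alternatives, which reuse the values the genes were chosen on and say little about stability. The called count was 41 with normexp, 268 with the authors' table (108 of the 140 among them), 6 without a filter on dim probes, 369 with a filter of 13 arrays, 357 with slide as a block, 311 with the proximal colon mean as covariate, 1 in a fit of the 2 groups alone and 1 without the arrays with pancreatic transcripts, and from 4 to 2273 with 1 array left out. Quantile normalization gave 147 and every probe on its own 141. The cause of these changes was not tested. With the replicate number as a block 30 genes were called, all among the 140, but the samples share only a number, and no array labelled Card9-/- correlated best with the WT array of its own number.

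The count between day 7 and day 0, 1 gene, was 0 under normexp, no filter, every probe, the replicate block, only the groups of the contrast, the proximal covariate and without arrays with pancreatic transcripts, and from 0 to 528 with 1 array left out (528 without WT day 7 replicate 3, 79 without day 0 replicate 3 labelled Card9-/-). The count between day 7 and day 12, 2 genes, was 0 under normexp, the replicate block, only the groups of the contrast and without arrays with pancreatic transcripts, 11 with a filter of 13 arrays, and from 0 to 62 with 1 array left out (62 without WT day 7 replicate 3, 7 without day 12 replicate 4 labelled Card9-/-, 4 without WT day 12 replicate 2). Card9 differed by 2.28 with normexp and by 4.66 to 5.13 under the others. Signal near background in 1 group limits Card9, Slc4a1, Prg4, Foxred2 and Exd1.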

Other observations

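The genes in this paragraph were called but lay outside the named rise and fall ranks, and all were chosen after their values were seen. Hnrnpd, which binds AU-rich mRNA elements, stood at 4.04, 3.58, 3.81 and 3.46 in the arrays labelled Card9-/-, against 3.24, 2.91, 2.99, 3.05 and 2.99 in WT arrays (0.69 ± 0.13, adjusted p = 0.026). It rose with no overlap. Mettl3, the catalytic subunit of the m6A RNA methyltransferase, fell, with 1.63, 1.65, 1.49 and 1.68 in the arrays labelled Card9-/-, against 1.90, 2.19, 1.94, 2.05 and 2.39 in WT arrays (-0.48 ± 0.10, adjusted p = 0.0342). Lama5, a laminin chain of epithelial basement membrane, had 2.23, 1.97, 2.85 and 2.54 in the arrays labelled Card9-/-, against 0.94, 1.25, 2.05, 1.19 and 0.88 in WT arrays (1.14 ± 0.24, adjusted p = 0.0397). Its groups overlapped through WT replicate 3.

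Lists of stroma and vessels gave 0 calls in limma. All 16 endothelial genes (median 0.79, 7 at an unadjusted p under 0.05) and all 22 complement and acute phase genes (median 0.95, 12 at an unadjusted p under 0.05) had a higher mean in the arrays labelled Card9-/-, as had 10604 of all 25464 genes tested. The endothelial list mean was 1.38 to 1.93 in the arrays labelled Card9-/-, against 2.08 in WT replicate 3 and 0.24 to 0.92 in the other WT arrays. All 11 MHC class II genes had a higher mean as well, 2 at an unadjusted p under 0.05, and 3 stood apart. The shares over all genes tested were 5.97% higher at that level and 0.911% apart in that direction. All 10 smooth muscle genes had a lower mean in the arrays labelled Card9-/- (median -0.61, 1 at an unadjusted p under 0.05, where 10.5% of all genes tested were lower at that level), as had 14860 of all genes tested, and the list means overlapped.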
